A study of Mus musculus with 4 samples.

Results

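Interferon-stimulated genes are genes whose transcription rises when a cell is exposed to interferon. With earlier results of these data known, a list of 42 genes of the interferon response was chosen by name from their known roles. These were sensors of viral RNA, transcription factors, antiviral enzymes and restriction factors, the ISG15 system, guanylate-binding proteins and antigen processing. The list also holds Irf3, which is made without interferon. Of the 42 genes, 40 were names of probes on the array, out of 30222 gene names in all. No probe carried the name Ifi27 or Ifi205. Where a gene had several probes, the one with the highest mean level was used and the others were compared with it. Well above background on all 4 arrays were 36 of the 40 genes, and 19052 of the 30222 gene names. Oas3 was well above background on none. Mx1 and Tap1 were not well above background on the ADX+PSL ZT22 array, nor was the probe used for Xaf1. The probe accessions of 36 of the 40 genes were found in the RefSeq annotation of GRCm38.p6, and all 36 had the same symbol there. Those of Ifi203, Trim25, Mx1 and Mx2 were not found, and their array names were kept.

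RNA of lumbar spinal slices (L4 to L5) was hybridized to 1-colour arrays of 60-base probes 7 days after PSL, the partial ligation of a sciatic nerve. The mice were male, 5 to 6 weeks old and of the ICR stock, which is outbred. All had the ligation: sham+PSL mice had a sham operation on the adrenal glands, and ADX+PSL mice had these glands removed (adrenalectomy, ADX) and drank saline, so that the groups differ in the main source of glucocorticoid hormone. Tissue was taken at ZT10, late in the light phase, or at ZT22, late in the dark phase, where zeitgeber time (ZT) counts hours from lights on. Each operation had 1 array per time, and the 4 arrays lay on 1 slide. The number of mice behind each RNA and the side of the cord are not given in the sources used here. No difference below has a replicate check, and precision is limited by the number of arrays. The software's error for a spot gave a log2 ratio a median error of 0.21, which covers the reading of the spots and neither mice nor slices.

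Type I interferons bind a receptor on nearly all cells and act through JAK kinases on a complex that holds STAT2 and IRF9, which enters the nucleus and switches on target genes. The products of these genes detect or degrade viral RNA, block entry and budding of viruses, or load peptides for T cells, and many targets have a low tonic level without infection. In the spinal cord, microglia, astrocytes and neurons can all respond to interferon, and glucocorticoid hormones are known to dampen parts of the response.

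The most common pattern among the 36 genes well above background on all 4 arrays was a highest level on the sham+PSL ZT22 array. This held for 27 of 36 (75%), against 24.8% of all genes, a count chosen after the data were seen. The highest level lay on the sham+PSL ZT10 array for 2 members (24.3% of all genes), on the ADX+PSL ZT10 array for 3 (24.8% of all genes) and on the ADX+PSL ZT22 array for 4 (26.1% of all genes). The lowest level lay on sham+PSL ZT10 for 8 members (22.2%, against 25.4% of all genes) and on sham+PSL ZT22 for 3 (8.33% against 27.8%). It lay on ADX+PSL ZT10 for 11 (30.6% against 21.7%) and on ADX+PSL ZT22 for 14 (38.9% against 25.1%). Against each gene's own mean over the 4 arrays, on the log2 scale, the members had a median of 0.38 on the sham+PSL ZT22 array. The median was -0.09 on sham+PSL ZT10, -0.09 on ADX+PSL ZT10 and -0.16 on ADX+PSL ZT22. Over all genes these medians lay between -0.01 and 0.01. As a single array carries the high values, the condition and the RNA on that array cannot be told apart.

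**Figure D1:**
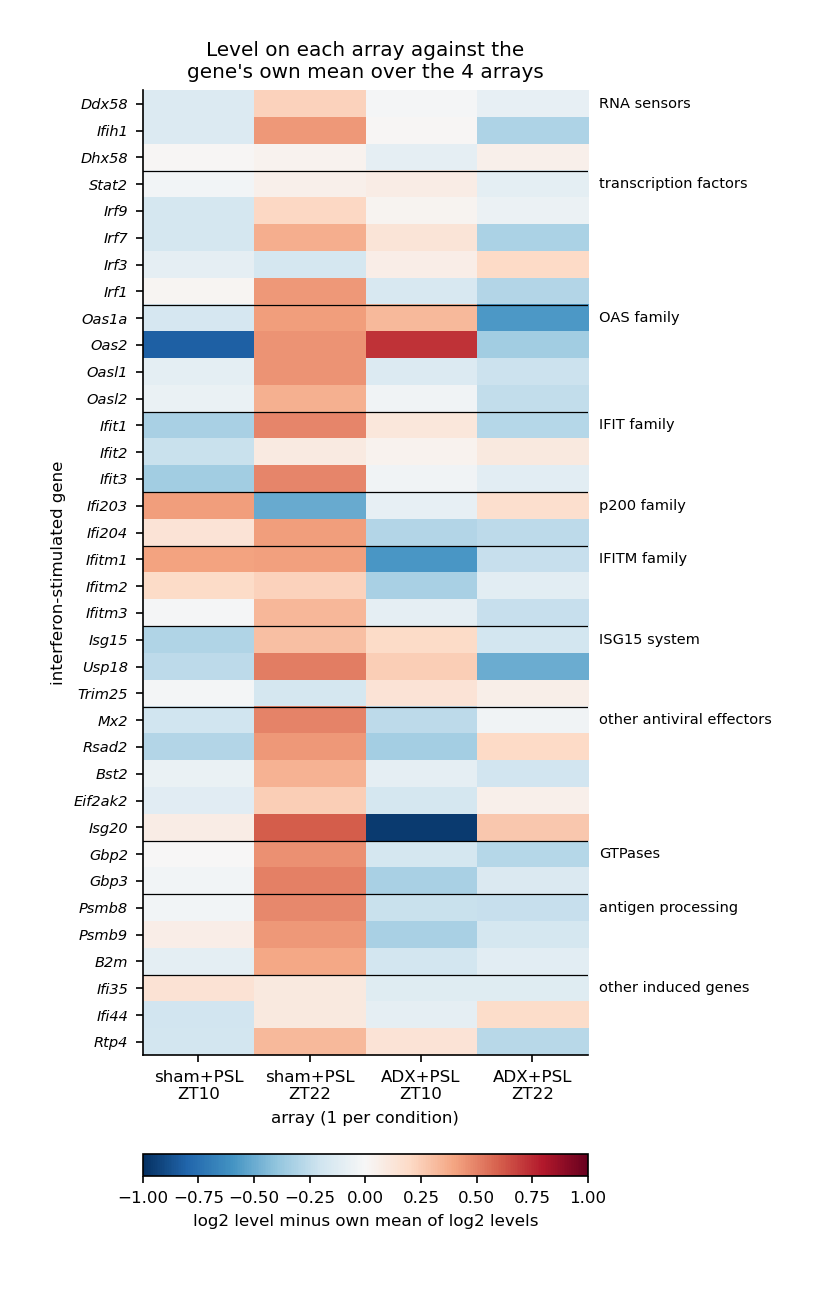
Heat map of the 36 genes well above background on all 4 arrays, with 1 column per array and colour for the log2 level minus the gene's own mean, grouped by role. The sham+PSL ZT22 column is the highest of the gene's 4 values in 27 of 36 genes, and the largest departures are in Oas2 and Isg20.

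The comparison of ZT10 with ZT22 in sham+PSL asks how the genes differ between times of day in ligated mice that keep their adrenal glands. Members were mostly lower at ZT10. Fold counts here and below cover genes with both levels well above background, and genes with only a bound are left out of them. Of 39 members with a ratio, 35 were below 0 (89.7%), against 49.4% of 19628 genes, and the median log2 ratio was -0.42 against 0.00 over all genes. The middle of the distribution was narrow, with quartiles of -0.54 and -0.29, so that most members differed by less than 1.5-fold. Only Oas2 was at least 2-fold lower (1.23% of all genes were) and no member was at least 2-fold higher (0.876% of all genes). At the smaller limit of 1.5-fold, 8 of 39 members were lower (20.5%, against 4.04% of all genes): the RNA-binding proteins Ifit1 and Ifit3, the ubiquitin-like modifier Isg15 and its protease Usp18, the oligoadenylate synthetases Oas1a and Oas2, the GTPase Mx2 and the radical enzyme Rsad2 (viperin). With a background correction that adds an offset of 50, 2 of 39 were lower by this limit (5.13%, against 2.06% of all genes), Ifit1 and Ifit3. Ifi203 was 1.5-fold or more higher (2.63% of all genes).

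In ADX+PSL, the same comparison of times gave members on both sides of 0. Of 36 members with a ratio, 15 were below 0 (41.7%, against 50.1% of 19327 genes), with a median of 0.07 against 0.00 over all genes. Among these, only Oas2 was at least 2-fold higher at ZT10 (0.471% of all genes were). The probe used for Xaf1 had a bound, at least 2.02-fold higher, and is outside the count. Isg20, an exonuclease that degrades RNA, was the one member at least 2-fold lower (1.03% of all genes), while its second probe gave a log2 ratio of 0.46. At 1.5-fold, Oas1a, Oas2 and Usp18 were higher (3 members, against 1.90% of all genes) and Isg20 was lower (1 member, against 3.24% of all genes). With the offset of 50, 0 of 36 were higher by this limit (0.864% of all genes). The members' quartiles were -0.16 and 0.18, near those of all genes at -0.14 and 0.14.

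**Figure D2:**
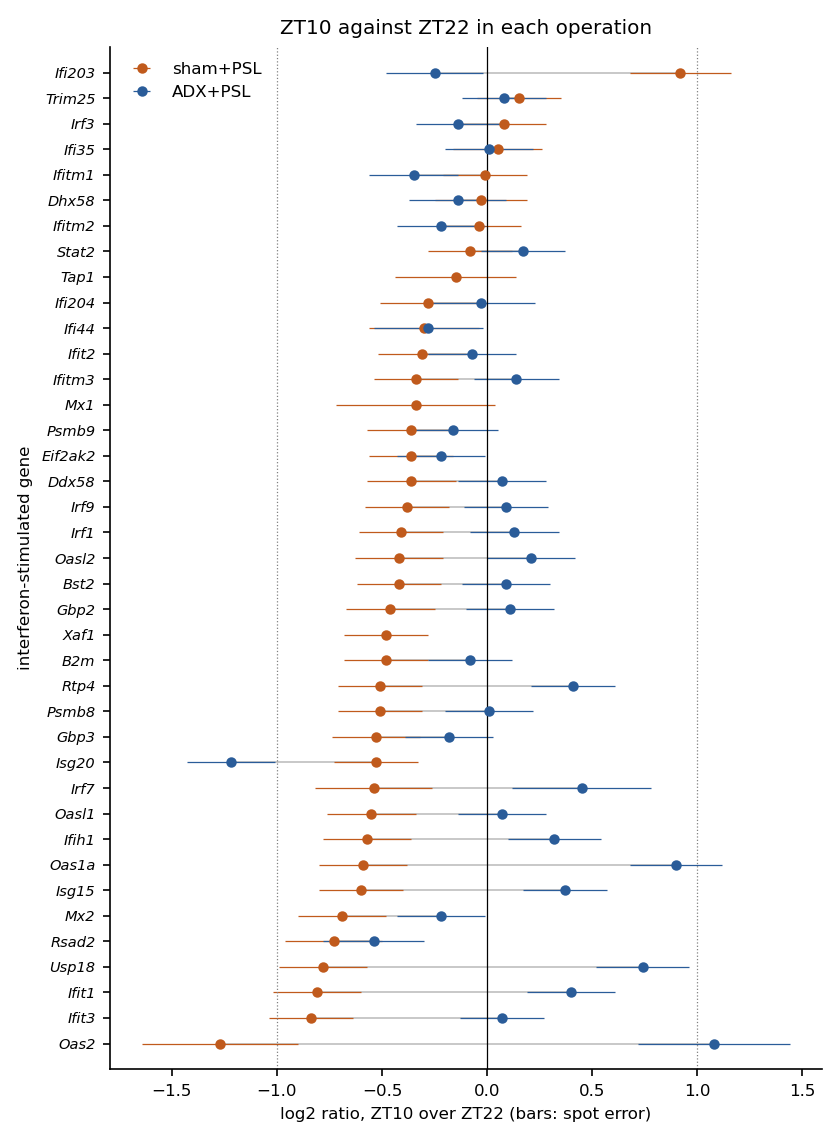
Log2 ratio of ZT10 to ZT22 for each member in sham+PSL (orange) and ADX+PSL (blue), ordered by the sham+PSL ratio. Bars are the spot error of the ratio and dotted lines mark 2-fold. In sham+PSL 35 of 39 points lie left of 0, and in ADX+PSL 15 of 36.

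The comparison of ADX+PSL with sham+PSL asks what differs between mice without and with adrenal glands at the same time of day. At ZT10 the members centred near 0. Of 39 members, 21 were below 0 (53.8%, against 49.0% of 20041 genes), and the median log2 ratio was -0.04 against 0.00. Oas2 was at least 2-fold higher in ADX+PSL (1 member, 0.714% of all genes), while the probes used for Isg20 and Xaf1 were at least 2-fold lower (2 members, 1.40% of all genes). The second probes of these genes did not share this, with log2 ratios of -0.12 for Isg20 and 1.0 for Xaf1. At 1.5-fold, Oas2 was higher (3.39% of all genes were), and Ifitm1, Isg20, Tap1 and Xaf1 were lower (4 of 39, or 10.3%, against 3.71% of all genes).

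At ZT22 most members were lower in ADX+PSL. Of 36 members with a ratio, 30 were below 0 (83.3%, against 47.9% of 19157 genes), and the median was -0.55 against 0.01 over all genes, with quartiles of -0.68 and -0.23. Among these, Usp18 was at least 2-fold lower (1 member, against 1.11% of all genes), and none was at least 2-fold higher (0.752% of all genes). At 1.5-fold, 17 of 36 members were lower (47.2%, against 3.37% of all genes). They were Ifih1 among the sensors, Irf1 and Irf7 among the transcription factors, Oas1a, Oas2, Oasl1 and Oasl2, Ifit1 and Ifit3, Ifi204, Ifitm1, Usp18, Gbp2 and Gbp3, the immunoproteasome subunits Psmb8 and Psmb9, and the receptor chaperone Rtp4. The number depends on the background correction: with the offset of 50, 5 of 36 were lower by this limit (13.9%, against 1.74% of all genes), namely Gbp2, Irf1, Oas1a, Psmb8 and Usp18. With the mean over all probes it was 14, without Ifih1, Irf1 and Psmb9. Ifi203 was the one member 1.5-fold or more higher (3.03% of all genes). Outside these counts were the bounds of Xaf1 (at least 34.0-fold lower by the probe used), Tap1 (at least 1.67-fold) and Mx1 (at least 1.38-fold). This comparison and that of the times in sham+PSL both use the sham+PSL ZT22 array, so that a high value there lowers both ratios.

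**Figure D3:**
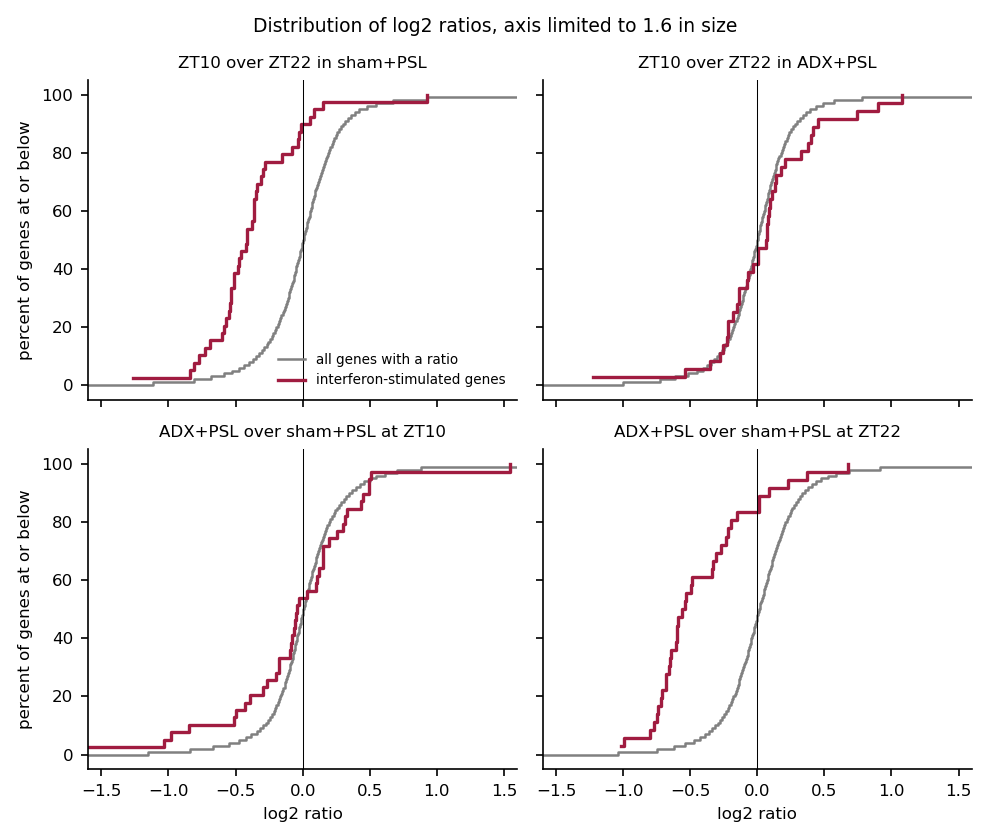
Cumulative distribution of log2 ratios in the 4 comparisons, for interferon-stimulated genes (red) and all genes with a ratio (grey); the vertical axis is the percent of genes at or below a ratio. The red curve lies left of the grey one in the panels of ZT10 over ZT22 in sham+PSL and of ADX+PSL over sham+PSL at ZT22, with medians of -0.42 and -0.55, and crosses or follows it in the other panels.

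The order of the 4 levels was also compared between operations. Of the 36 members, 13 (36.1%) had both ADX+PSL levels below both sham+PSL levels, against 15.7% of all genes. These were B2m, Bst2, Gbp2, Gbp3, Ifi204, Ifi35, Ifitm1, Ifitm2, Ifitm3, Irf1, Oasl1, Psmb8 and Psmb9, among them all 3 listed IFITM genes and both listed guanylate-binding proteins. Irf3 and Trim25 were higher on both ADX+PSL arrays (2 of 36, or 5.56%, against 19.2% of all genes). The differences were small: only Ifitm1 had group means at least 1.5-fold apart. As a set, the 13 members had their highest median at sham+PSL ZT22, 0.42 against their own mean, beside 0.00 on sham+PSL ZT10, -0.18 on ADX+PSL ZT10 and -0.21 on ADX+PSL ZT22. Ifi35 was highest on sham+PSL ZT10 instead, and Ifitm1 and Ifitm2 were nearly level on the sham+PSL arrays.

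**Figure D4:**
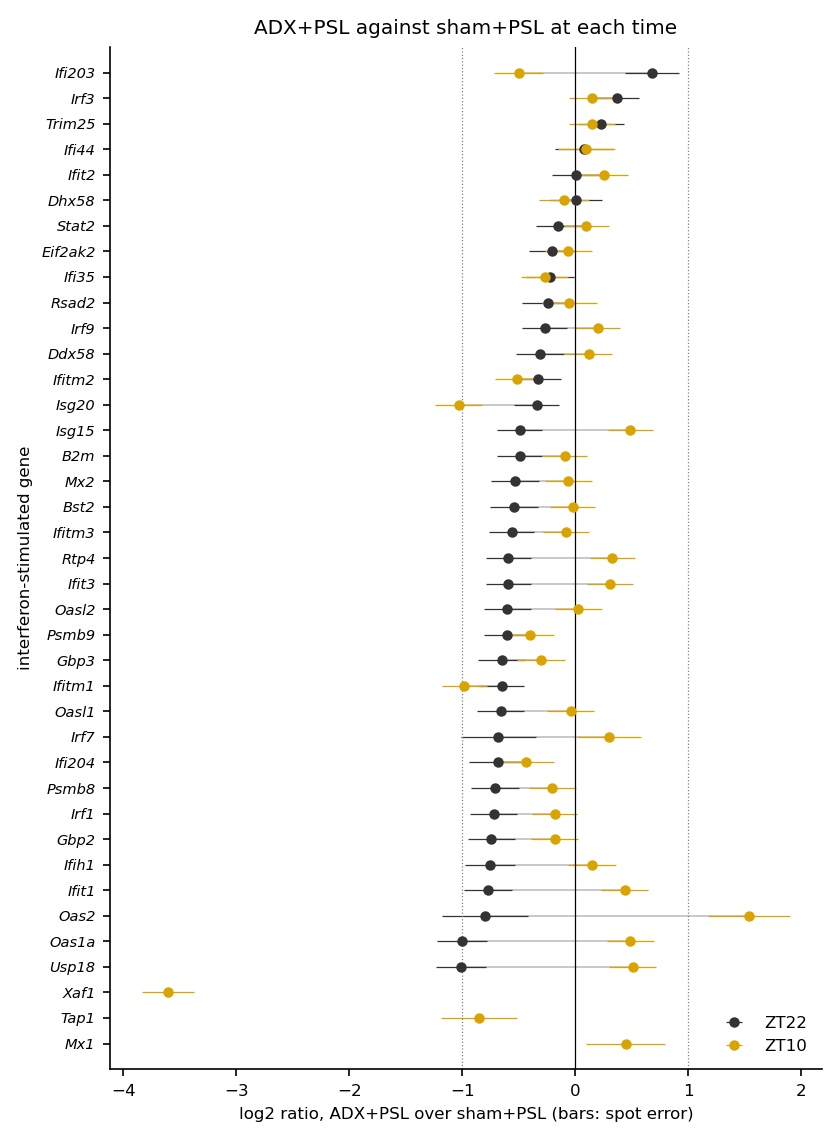
Log2 ratio of ADX+PSL to sham+PSL for each member at ZT10 and at ZT22, with bars for the spot error and dotted lines at 2-fold. At ZT22 30 of 36 points lie left of 0, and at ZT10 21 of 39, with the probe used for Xaf1 at -3.60.

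The promoters of the members were searched for the letters GAAANNGAAA, or TTTCNNTTTC on the other strand. This is a pair of GAAA repeats with the spacing found in interferon response elements. The list was chosen for the interferon response, so a share above that of all genes comes with the choice. It says nothing about the levels on these arrays. The 250 bases before the transcription start were taken from RefSeq (GRCm38.p6). Of 34 listed genes with an entry, 14 (41.2%) held the motif, against 936 of 27025 gene symbols (3.46%) and 978 of 32851 windows (2.98%). The promoter table used has no entry for Oas2, Rtp4, Mx2, Ifi27, Ifi204, Mx1, Dhx58 or Usp18. Of the members highest on the sham+PSL ZT22 array, 10 of 23 held it (43.5%), and of the members highest on another array, 2 of 7 (28.6%). These numbers are small, and the difference was not tested. It was present in 5 of 5 entries among the members at least 1.5-fold lower at ZT10 in sham+PSL, which are printed here. They were chosen for the direction and size of their values, and a match is a description of letters and not of a bound site. The windows are chr19:34640639-34640888 (plus strand) for Ifit1, chr19:34583279-34583528 (plus strand) for Ifit3, chr4:156200819-156201068 (minus strand) for Isg15, chr5:120907526-120907775 (minus strand) for Oas1a and chr12:26456453-26456702 (minus strand) for Rsad2. Each is written 5′ to 3′ on the strand of its gene up to the base before the start, with matches in capitals.
Ifit1: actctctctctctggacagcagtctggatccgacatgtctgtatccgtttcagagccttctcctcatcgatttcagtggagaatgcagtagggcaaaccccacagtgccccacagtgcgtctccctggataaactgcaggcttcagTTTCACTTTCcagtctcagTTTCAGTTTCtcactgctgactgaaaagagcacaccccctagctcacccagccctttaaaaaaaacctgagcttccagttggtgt
Ifit3: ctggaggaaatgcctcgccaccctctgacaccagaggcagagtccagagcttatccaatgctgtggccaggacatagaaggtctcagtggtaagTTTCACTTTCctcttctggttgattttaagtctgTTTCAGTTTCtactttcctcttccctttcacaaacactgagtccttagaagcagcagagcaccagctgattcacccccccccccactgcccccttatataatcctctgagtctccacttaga
Isg15: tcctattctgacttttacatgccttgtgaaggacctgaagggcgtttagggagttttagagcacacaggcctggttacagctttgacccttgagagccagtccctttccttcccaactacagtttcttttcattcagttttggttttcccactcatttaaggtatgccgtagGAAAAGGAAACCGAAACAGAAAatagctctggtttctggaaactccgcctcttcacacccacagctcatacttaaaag
Oas1a: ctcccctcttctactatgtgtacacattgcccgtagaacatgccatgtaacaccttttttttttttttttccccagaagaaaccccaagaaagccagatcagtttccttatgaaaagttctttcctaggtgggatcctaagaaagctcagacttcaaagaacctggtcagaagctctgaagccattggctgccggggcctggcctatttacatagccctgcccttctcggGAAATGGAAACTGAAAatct
Rsad2: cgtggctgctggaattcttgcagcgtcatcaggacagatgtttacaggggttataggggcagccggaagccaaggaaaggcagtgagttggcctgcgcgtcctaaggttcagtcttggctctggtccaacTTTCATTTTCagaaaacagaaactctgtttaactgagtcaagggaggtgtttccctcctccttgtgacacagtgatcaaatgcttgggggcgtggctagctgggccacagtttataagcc
Ifit1 and Ifit3 each hold 2 separate matches in the form TTTCNNTTTC, the closest 75 and 112 bases before the start. In Isg15, 3 overlapping matches form 1 run that ends 56 bases before the start. In Oas1a, 2 overlapping matches end 4 bases before it, and Rsad2 has 1 match 110 bases before it.

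Among the RNA sensors, Ddx58 (RIG-I), Ifih1 (MDA5) and Dhx58 (LGP2) are helicases that bind viral RNA in the cytoplasm. Between times, their median log2 ratio was -0.36 with sham operation and 0.07 after ADX, both set by Ddx58. With the mean over its probes, the second not well above background on either ZT22 array, Ddx58 gave -0.05 and 0.49. Between operations it was 0.12 at ZT10 and -0.31 at ZT22, with Ifih1 at -0.75. The factors Stat2 and Irf9 belong to the complex that interferon activates, Irf3 and Irf7 turn on interferon genes, and Irf1 is itself induced by interferon-gamma. In sham+PSL 4 of 5 of these factors were below 0, with a median of -0.38. At ZT22 4 of 5 were lower in ADX+PSL, with a median of -0.27. Irf3, which is made without interferon, ran the other way: its levels were 3827 (ZT10) and 3614 (ZT22) in sham+PSL, and 4256 (ZT10) and 4680.3 (ZT22) in ADX+PSL. Both ADX+PSL levels were above both sham+PSL levels, by 1.2-fold between means, and the lowest of the 4 was on the array where most members were highest. Levels here and below are the deposited intensities, in arbitrary units, in which different probes cannot be set against each other.

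The oligoadenylate synthetases make the messenger that activates RNase L, a nuclease that cuts viral and cellular RNA. The 4 members of this family that had ratios were all lower at ZT10 in sham+PSL, with a median of -0.57, and all higher at ZT10 in ADX+PSL, with a median of 0.55. In ADX+PSL, Oasl1 (0.07) and Oasl2 (0.21) did not go beyond their spot error of 0.21. That median lies between them and the ratios of Oas1a (0.90) and Oas2 (1.08). All 4 members were also lower in ADX+PSL at ZT22, with a median of -0.73. Oas1b and Oas1c, family genes of another list and chosen after their values were seen, did not share this, with log2 ratios at ZT22 of 0.08 and 0.11. Oas2, read by a probe at chr5:121180343-121180402 (mm9, the build of the array files), had levels of 17.4 (ZT10) and 41.9 (ZT22) in sham+PSL, and 50.9 (ZT10) and 24.1 (ZT22) in ADX+PSL. The high arrays were thus sham+PSL ZT22 and ADX+PSL ZT10, and the levels of the operations overlapped. At ZT10 Oas2 was 2.40-fold lower than at ZT22 in sham+PSL and 2.11-fold higher in ADX+PSL. It was 2.92-fold higher in ADX+PSL than in sham+PSL at ZT10 and 1.74-fold lower at ZT22. These levels lie close to background, with the lowest level well above background at 14.9 on the sham+PSL ZT10 array, and the spot error of the log2 ratios was 0.36 to 0.38. With the offset of 50, none of the Oas2 ratios reached 2-fold. Oas1a, also an active synthetase, had levels of 163 (ZT10) and 245 (ZT22) in sham+PSL, and 229 (ZT10) and 123 (ZT22) in ADX+PSL. The same arrays were high and low as for Oas2, in another order within each pair. At ZT22 Oas1a was 1.99-fold lower in ADX+PSL, just short of the 2-fold limit. A second Oas1a probe, not well above background on ADX+PSL ZT22, was higher at ZT10 in sham+PSL, with 32.9 against 27.1 at ZT22. The mean over both probes gave a log2 ratio of -0.15 in sham+PSL and the offset of 50 gave -0.50, both short of 1.5-fold.

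The IFIT proteins bind viral RNA that lacks the host's cap methylation. Ifit1 and Ifit3 were lower at ZT10 in sham+PSL by more than most members, and the family had a median of -0.81, the lowest of the roles. Ifit3 had levels of 1188 (ZT10) and 2120.1 (ZT22) in sham+PSL, and 1476 (ZT10) and 1405 (ZT22) in ADX+PSL. A single high array, sham+PSL ZT22, stood 1.78-fold above sham+PSL ZT10 and 1.51-fold above ADX+PSL ZT22, and the ADX+PSL levels lay between the sham+PSL levels. Ifit2 differed less, at -0.31 in sham+PSL and 0.01 between operations at ZT22.

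Isg15 is conjugated to proteins in the way of ubiquitin, Usp18 removes it and also damps receptor signalling, and Trim25 is a ubiquitin ligase that activates RIG-I. Usp18 (probe at chr6:121220874-121220933, mm9) had levels of 118 (ZT10) and 202 (ZT22) in sham+PSL, and 167 (ZT10) and 100 (ZT22) in ADX+PSL. As in Oas1a, the high arrays were sham+PSL ZT22 and ADX+PSL ZT10. Usp18 was 1.71-fold lower at ZT10 in sham+PSL, 1.67-fold higher at ZT10 in ADX+PSL and 2.02-fold lower in ADX+PSL at ZT22. With the offset of 50 its log2 ratio at ZT22 was -0.70, short of 2-fold. Isg15 had the same high arrays, with levels of 799 (ZT10) and 1213 (ZT22) in sham+PSL, and 1123 (ZT10) and 866 (ZT22) in ADX+PSL. Its second probe gave log2 ratios between times of -0.39 with sham operation and 0.54 after ADX, beside -0.60 and 0.37 for the first. Trim25 had levels of 2161 (ZT10) and 1944 (ZT22) in sham+PSL, and 2406 (ZT10) and 2282 (ZT22) in ADX+PSL, so that both ADX+PSL arrays were above both sham+PSL arrays by 1.14-fold between means. A second Trim25 probe did not show this order, with 1404 (ZT10) and 1774 (ZT22) in sham+PSL, and 1169 (ZT10) and 1605 (ZT22) in ADX+PSL.

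By the probe used, Oas1a, Oas2 and Usp18 differed by at least 1.5-fold between times in both operations and in opposite directions. With the offset of 50 none of the 3 did so in either operation. As reported, this was so for 101 of 19052 genes (0.530%). Ifi27l2a, chosen after its values were seen because its name is close to that of the listed Ifi27, had the same form, with 540.0 (ZT10) and 1359.7 (ZT22) in sham+PSL, and 878 (ZT10) and 523 (ZT22) in ADX+PSL. It was 2.52-fold lower at ZT10 in sham+PSL and 1.68-fold higher at ZT10 in ADX+PSL. A neighbouring gene chosen in the same way, named Ifi27l1 on the array, carries an accession that RefSeq gives as Ifi27. Its levels were 10632 (ZT10) and 15731 (ZT22) in sham+PSL, and 10627 (ZT10) and 11647 (ZT22) in ADX+PSL, highest on sham+PSL ZT22 with the other arrays close together. A further gene chosen after its values were seen, the p200 gene Ifi202b, was lower at ZT10 in both operations, with log2 ratios of -1.19 and -0.58, and of -0.98 and -0.87 by a second probe. None of these 3 genes is counted among the members.

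The IFITM proteins sit in membranes and block the entry of enveloped viruses. The family's median log2 ratio of ADX+PSL to sham+PSL was -0.51 at ZT10 and -0.56 at ZT22, with 3 of 3 genes below 0 at both times. Ifitm1 (probe at chr7:148155659-148155718, mm9) had levels of 589 (ZT10) and 595 (ZT22) in sham+PSL, and 298 (ZT10) and 380.0 (ZT22) in ADX+PSL. The sham+PSL levels were nearly equal and both lay above both ADX+PSL levels, by 1.75-fold between means. Ifitm1 was 1.98-fold lower in ADX+PSL at ZT10 and 1.56-fold lower at ZT22. A second probe of that name, which the array files place on chromosome 8, gave 561, 569, 280.3 and 364 on the same 4 arrays in the same order. Ifitm3 had levels of 1491 (ZT10) and 1893 (ZT22) in sham+PSL, and 1414 (ZT10) and 1282 (ZT22) in ADX+PSL. Here the sham+PSL ZT22 array was the high one, 1.48-fold above ADX+PSL ZT22, while the operations at ZT10 were 1.05-fold apart.

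Among the other antiviral effectors, Mx1 and Mx2 are dynamin-like GTPases, Rsad2 (viperin) makes a chain-terminating nucleotide, Bst2 (tetherin) holds budding virus at the cell surface, and Eif2ak2 (PKR) halts translation on binding double-stranded RNA. All 6 genes of this role, with Isg20, were lower at ZT10 in sham+PSL, with a median of -0.47, and the 5 with a ratio at ZT22 were lower in ADX+PSL, with a median of -0.34. Isg20 (probe at chr7:86065136-86065195, mm9) had levels of 416 (ZT10) and 601 (ZT22) in sham+PSL, and 203 (ZT10) and 475 (ZT22) in ADX+PSL. The ADX+PSL ZT10 array was the low one, 2.34-fold below ADX+PSL ZT22 and 2.05-fold below sham+PSL ZT10. The second Isg20 probe did not show this, with 95.8 (ZT10) and 59.9 (ZT22) in sham+PSL, and 88.0 (ZT10) and 63.8 (ZT22) in ADX+PSL, and the direction between times was opposite in both operations. With the mean over both probes, no member was 2-fold lower at ZT10 in ADX+PSL. For Mx1, the level on the ADX+PSL ZT22 array allowed only a bound, at least 1.38-fold below sham+PSL ZT22.

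The guanylate-binding proteins Gbp2 and Gbp3 attack the vacuoles of intracellular pathogens. Both were lower at ZT10 in sham+PSL (median -0.50) and lower in ADX+PSL at ZT22 (median -0.70), and both had their highest level on sham+PSL ZT22. Gbp5 and Gbp6, family genes of another list and chosen after their values were seen, were higher in ADX+PSL at ZT22, with log2 ratios of 0.31 and 0.51. Gbp4 and Gbp7, from that list too, were lower there, with log2 ratios of -0.19 and -0.22. The antigen processing genes make peptides for MHC class I, with Psmb8 and Psmb9 as catalytic subunits of the immunoproteasome, Tap1 as a subunit of the peptide transporter and B2m as the light chain of the class I molecule. Their median was -0.42 between times in sham+PSL, -0.08 in ADX+PSL, -0.30 between operations at ZT10 and -0.60 at ZT22. B2m had levels of 7211 (ZT10) and 10092 (ZT22) in sham+PSL, and 6797 (ZT10) and 7167 (ZT22) in ADX+PSL. Its 3 lower arrays were within 1.06-fold of each other, and sham+PSL ZT22 stood 1.40-fold above sham+PSL ZT10 and 1.41-fold above ADX+PSL ZT22. Tap1 was near background, with 34.7 (ZT10) and 38.6 (ZT22) in sham+PSL and 19.3 at ZT10 in ADX+PSL, and was at least 1.67-fold lower in ADX+PSL at ZT22.

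The p200 proteins, relatives of the DNA sensor IFI16, are read by probes on chromosome 1 in the array files. Ifi203 ran against most members, with levels of 114 (ZT10) and 60.1 (ZT22) in sham+PSL, and 80.6 (ZT10) and 96.0 (ZT22) in ADX+PSL. Like Irf3 and Trim25, it was lowest where most members were highest. This rests on 1 probe: another probe of the name gave 31.2 (ZT10) and 39.1 (ZT22) in sham+PSL, and 33.3 (ZT10) and 38.0 (ZT22) in ADX+PSL, and the mean over its probes turned the log2 ratio in sham+PSL from 0.92 to -0.38. A further probe was well above background at ZT22 only, with 74.1 in sham+PSL and 31.3 in ADX+PSL, and the last probe on no array. The mean over probes thus takes in levels not well above background. Ifi204 was lower on both ADX+PSL arrays, with log2 ratios of -0.43 at ZT10 and -0.68 at ZT22.

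Xaf1, a gene linked to cell death, gave the largest ratio of the list and the largest disagreement between probes. The probe used (chr11:72127175-72127234, mm9) had levels of 542 (ZT10) and 754 (ZT22) in sham+PSL, and 44.8 (ZT10) and 3.52 (ZT22) in ADX+PSL, the last not well above background. Both sham+PSL arrays were high and both ADX+PSL arrays low, 12.1-fold lower at ZT10 and at least 34.0-fold lower at ZT22. The other Xaf1 probe, at chr11:72122169-72122228, had the reverse order: 185 (ZT10) and 249 (ZT22) in sham+PSL, and 369 (ZT10) and 404 (ZT22) in ADX+PSL. Its log2 ratio of ADX+PSL to sham+PSL was 1 at ZT10 and 0.70 at ZT22. Both probes carry the same accession, so the ratio of the gene as a whole cannot be given, and the reason for the difference was not tested. Of the remaining genes, Rtp4 had log2 ratios between times of -0.51 with sham operation and 0.41 after ADX, and Ifi35 and Ifi44 stayed within 0.30 of 0 in each comparison.

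**Figure D5:**
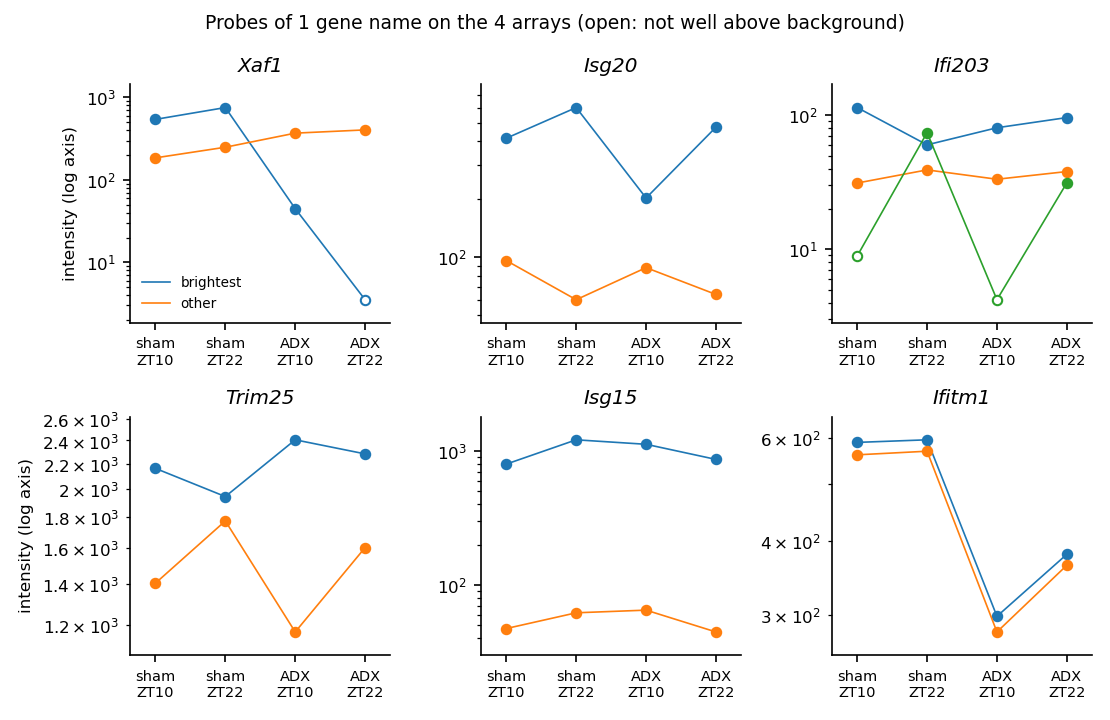
Intensity on the 4 arrays, on a log axis, for the probes of 6 gene names; blue is the brightest probe, the one used, and open points are not well above background. The probes run in parallel for Ifitm1 and nearly so for Isg15, and diverge for Xaf1, Isg20, Ifi203 and Trim25.

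Other genes of the interferon pathway were taken from lists of known function. Of 21 interferon ligands, 15 were names on the array, and 7 reached a level well above background on each of the 4 arrays. Ifna4, Ifnb1, Ifne and Ifng, which include the beta and gamma interferons, were well above background on none. Among the ligands with a ratio in sham+PSL, 3 of 7 were lower at ZT10, with a median of 0.07, and none was highest on the sham+PSL ZT22 array. Ifna1 had levels of 96.2 (ZT10) and 31.7 (ZT22) in sham+PSL, and 38.9 (ZT10) and 40.3 (ZT22) in ADX+PSL, high on sham+PSL ZT10 alone. Ifnab had levels of 53.0 (ZT10) and 60.4 (ZT22) in sham+PSL, and 149 (ZT10) and 60.4 (ZT22) in ADX+PSL, high on ADX+PSL ZT10 alone. The brightest ligand was Il28b, an interferon-lambda, with 1157 (ZT10) and 867 (ZT22) in sham+PSL, and 889.7 (ZT10) and 816 (ZT22) in ADX+PSL. So the ligands measured did not share the high array of the members.

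Receptors and JAK-STAT signalling genes were all well above background (17 of 17) and differed little. In sham+PSL 12 of 17 were lower at ZT10, with a median of -0.06, and at ZT22 11 of 17 were lower in ADX+PSL, with a median of -0.13. The highest level was on the sham+PSL ZT22 array for 9 of 17. None of these genes reached 2-fold in any of the 4 comparisons. The brightest, the phosphatase Ptpn11 (SHP2), had levels from 16920.2 to 19946. Of 14 named genes for nucleic acid sensing and its adaptors, 12 were well above background on all 4 arrays. In sham+PSL 6 of 12 were lower at ZT10, with a median of -0.01, and the brightest, the adaptor Traf3, had levels from 6483 to 7735. Of the 5 other interferon regulatory factors, Irf4 was well above background on none. Among the remaining 4, 2 were lower at ZT10 in sham+PSL, with a median of -0.09, and each was highest on a different array. Their median between operations at ZT22 was 0.00. The brightest, Irf8, a factor of microglia and other myeloid cells, had levels of 686 (ZT10) and 925 (ZT22) in sham+PSL, and 559 (ZT10) and 683 (ZT22) in ADX+PSL, highest on sham+PSL ZT22.

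A second list of 43 interferon-induced genes, with 42 named on the array and 36 detected well above background on each of the 4, was also mostly lower at ZT10 in sham+PSL. There 31 of 37 were lower, with a median of -0.32, and 10 of them by at least 1.5-fold (4.04% of all genes). The highest level was on the sham+PSL ZT22 array for 24 of 36. Between operations at ZT22, 25 of 36 were lower in ADX+PSL, with a median of -0.21. In ADX+PSL the median between times was -0.03, and between operations at ZT10 it was 0.03. Nlrc5, which turns on MHC class I genes, had levels of 34.7 (ZT10) and 57.2 (ZT22) in sham+PSL, and 32.6 (ZT10) and 28.2 (ZT22) in ADX+PSL, and was 2.03-fold lower in ADX+PSL at ZT22. Its ADX+PSL ZT22 level lies near background, as the lowest level well above background on that array was 22.2. Ly6a ran the other way, with 1782 (ZT10) and 780.2 (ZT22) in sham+PSL, and 1091 (ZT10) and 1532 (ZT22) in ADX+PSL, lowest on sham+PSL ZT22. Oas1b, the brightest of the list, had levels from 11871 to 13729 and followed neither time nor operation by more than 1.16-fold.

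Interferon-stimulated genes are made by several cell types, and in RNA of whole tissue fewer cells of a type and less RNA per cell cannot be told apart. Marker genes were therefore read on the same arrays. The brightest probe of a list leads its sum and says nothing about the gene's abundance. The 8 microglial and macrophage markers were all well above background and were highest on the sham+PSL ZT22 array in 7 of 8 cases. Their summed level was 75292 (ZT10) and 95052 (ZT22) in sham+PSL, and 77957 (ZT10) and 82920.1 (ZT22) in ADX+PSL. Itgam, with the brightest probe and so the largest part in the sum, had levels of 44355 (ZT10) and 53144 (ZT22) in sham+PSL, and 51198 (ZT10) and 50946 (ZT22) in ADX+PSL. In sham+PSL 8 of 8 were lower at ZT10, with a median of -0.43, and at ZT22 7 of 8 were lower in ADX+PSL, with a median of -0.37. In ADX+PSL the markers were also lower at ZT10 (7 of 8, median -0.31), where the median of the interferon-stimulated genes was 0.07. Microglial markers thus shared the high array of the members, and their part in the result was not tested.

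Markers of cells from the blood were detected in part. Of 6 T and NK cell markers, Cd3d, Cd3g and Cd8a were well above background on no array. The summed level was 3282 (ZT10) and 3419.9 (ZT22) in sham+PSL, and 3567 (ZT10) and 3492 (ZT22) in ADX+PSL, with Cd4 the brightest. The 4 B cell markers, of which Ms4a1 was well above background on none, summed to 68.1 (ZT10) and 101 (ZT22) in sham+PSL, and 86.2 (ZT10) and 105 (ZT22) in ADX+PSL, with Cd79a the brightest. Of 4 named monocyte and granulocyte markers, Ccr2 and Ngp were well above background on none. The sum was 539.9 (ZT10) and 298 (ZT22) in sham+PSL, and 169.7 (ZT10) and 403 (ZT22) in ADX+PSL, with S100a9 the brightest. None of these 3 sums was highest on sham+PSL ZT22.

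Markers of tissue around the cord differed far more between arrays than the members did. The 5 red blood cell markers were lowest on the array where most members were highest: their sum was 128729 (ZT10) and 17931 (ZT22) in sham+PSL, and 90028 (ZT10) and 81049 (ZT22) in ADX+PSL. All 5 exceeded 2-fold between times in sham+PSL, with higher levels at ZT10, and the brightest probe was that of Hba-a2. Of the 6 meningeal fibroblast markers, 5 were lower on both ADX+PSL arrays, and the sum was 14707 (ZT10) and 13160.5 (ZT22) in sham+PSL, and 4545 (ZT10) and 5103 (ZT22) in ADX+PSL, with Dcn the brightest. Lower levels on both ADX+PSL arrays were also those of 13 of the 36 members, Ifitm1 among them. The exception was Slc22a6, with 50.7 (ZT10) and 339 (ZT22) in sham+PSL, and 51.8 (ZT10) and 50.9 (ZT22) in ADX+PSL, high on the array where most members were highest. The 4 skeletal muscle markers summed to 1509.7 (ZT10) and 108 (ZT22) in sham+PSL, and 105 (ZT10) and 105 (ZT22) in ADX+PSL. The brightest muscle probe, that of Myh4, stood at 811 on sham+PSL ZT10 and elsewhere, at 3.63 to 4.01, did not clear background. The part of blood, meninges and muscle in the members' levels was not tested.

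Markers of the cord's own cells varied less. The 5 astrocyte markers summed to 40529 (ZT10) and 45691 (ZT22) in sham+PSL, and 33249 (ZT10) and 43977 (ZT22) in ADX+PSL. Gfap was the brightest, with 8565 on ADX+PSL ZT10, its lowest array, and 15516 to 18028 on the others. The 5 neuronal markers summed to between 171753 and 192065, with Nefl the brightest, and the 4 motor neuron markers to between 2929.7 and 3621, with Slc5a7 the brightest. The 6 endothelial markers summed to 7500.3 (ZT10) and 8289.6 (ZT22) in sham+PSL, and 8172 (ZT10) and 9506 (ZT22) in ADX+PSL, with Flt1 the brightest. The markers of these cells were well above background on all 4 arrays. Of the oligodendrocyte markers, Mbp, Mog and Mobp are given, chosen after their values were seen. At ZT22 they were lower in ADX+PSL, with log2 ratios of -0.53, -0.11 and -0.44. Mbp and Mog were highest on sham+PSL ZT22, as most members were, and Mobp on ADX+PSL ZT10. For all of these cells, their part in the result was not tested.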

How the data were processed

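The authors deposited Feature Extraction files for each of the 4 arrays (version 10.7.1.1 in the file headers, 9.5.1.1 in the submitters' processing notes) and a table of probe intensities on the linear scale, quantile-normalized by the authors over the 4 arrays. Levels came from that table, and the flag for spots well above background from the files. Each array had 39429 probes, of which 65.1% to 70.1% were well above background. Ratios needed both levels above background by that flag. Where 1 fell short, the lowest passing level of its array, or its own level if higher, gave a bound. Spot errors came from the software. Quantile normalization forces the 4 arrays to 1 distribution, so a shift of most genes would not be seen.

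The rule for naming allowed any of the 42 listed genes in the text. Levels on each array are given for members at least 2-fold apart in any comparison, members on 1 side in both operations with means at least 1.5-fold apart, and the 5 with the highest mean level. From other pathway lists, genes at least 2-fold apart and each list's brightest gene are named. Levels of Oas1a, Isg15, Tap1 and Ifi203 were added after their values were seen. Members and lists were chosen with earlier results of these data known. Python 3.11.15, numpy 2.4.6, pandas 2.3.3, matplotlib 3.10.9, R 4.3.3 and limma 3.58.1 were used, and the steps were tested on simulated data.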

Additional observations from a re-analysis of the deposited data

Results flagged for a closer look

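In 3 members the ratio of ZT10 to ZT22 was below 1 in sham+PSL and above 1 in ADX+PSL, with at least 1.5-fold in each. The log2 ratios differed between the operations by 2.34 for Oas2 (-1.27 in sham+PSL and 1.08 in ADX+PSL), by 1.52 for Usp18 (-0.78 and 0.74) and by 1.49 for Oas1a (-0.59 and 0.90). With 1 array per condition the difference between the operations was not tested. Oas2 lies near background, with a spot error of 0.37 on its sham+PSL ratio and 0.36 on its ADX+PSL ratio. For Oas1a the sham+PSL ratio, from 1 probe, lay at the 1.5-fold limit. Its second probe gave 0.28 in sham+PSL, and the mean over both probes -0.15. With a background correction that adds an offset of 50, none of the 3 members differed by 1.5-fold between times in either operation.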

How the results depend on the processing

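No replicate could be left out, as each condition has 1 array. Under each alternative run, the median log2 ratio of the members in each comparison moved by at most 0.1, the median of all genes by at most 0.03, and the number of members highest on the sham+PSL ZT22 array, an added result chosen after seeing the data, stayed within 1.5 times of 27. Counts past a fold limit are small and moved more. With a limit of 1.5-fold, members higher and lower at ZT10 numbered 1 and 8 in sham+PSL and 3 and 1 in ADX+PSL, and those higher and lower in ADX+PSL 1 and 4 at ZT10 and 1 and 17 at ZT22. These counts under other settings were added after seeing the data: an offset of 50 left 2 of the 8, 5 of the 17, 0 of the 3 and 0 of each single higher member. The mean over probes gave 14 for the 17 and 7 for the 8, with Ifi204 added and Isg15 and Oas1a lost. With scaling to the 75th percentile the 8 became 10, the 3 became 4, and 2 members in place of 1 were higher in ADX+PSL at ZT10. With normexp and an offset of 50, which pulls ratios of dim probes toward 0 by construction, the 2-fold counts were 0 lower in sham+PSL, 0 higher in ADX+PSL, 0 higher and 1 lower between operations at ZT10, and 0 lower at ZT22. With the mean over all probes of a gene they were 0 lower at ZT10 in ADX+PSL, 1 lower between operations at ZT10 and 2 lower at ZT22, and 1 member in place of 2 was higher on both ADX+PSL arrays. Scaling to the 75th percentile gave 2 lower at ZT22. Keeping genes that pass the background flag on any array gave 2 higher at ZT10 in ADX+PSL and 2 lower between operations at ZT22, and requiring all 4 arrays gave 1 lower between operations at ZT10. With group means at least 1.5-fold apart, a limit chosen after seeing the data, 1 member was lower and 0 were higher on both ADX+PSL arrays. The members' own ratios were each read under 4 settings and counted once per setting. In all, 549 were within their spot error of the reported value, 48 moved further and 3 reversed. The 2 settings on the scanner signal, which tracks the deposited table (Pearson r of log2 levels 0.9994 to 0.9999), gave 150 each of the 549. With the offset of 50, 127 stayed and 23 moved. With the mean over probes, 122 stayed and 25 moved, and genes with 1 probe could not move. Reversed is a label for a changed sign where the reported ratio was at least 1.5-fold, and smaller ratios also changed sign. All 3 came with the mean over probes: Ifi203 in sham+PSL (-0.38) and between operations at ZT22 (-0.15), and Irf1 between operations at ZT22 (0.15), whose second probe is not well above background. The means of Ifi203 also took in levels not well above background. The cause of the other moves was not tested.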
